A study of Mus musculus with 6 samples.

Results

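The miRNAs described here are the 5p products of the miR-10, miR-99 and miR-100 hairpins in adult mouse brain cortex. They are mmu-miR-10a-5p, mmu-miR-10b-5p, mmu-miR-99a-5p, mmu-miR-99b-5p and mmu-miR-100-5p (the prefix mmu, for mouse, is left out in most of what follows), taken by name, and all 5 were among the 1182 miRNAs of the deposited table. Small RNA was sequenced from 6 cortex libraries of untreated, age-matched adult males, 3 labelled as Fmr1 knockout (KO) and 3 as wild type (WT). The product of Fmr1, FMRP, binds RNA and controls translation in neurons, and fragile X syndrome in people follows from its loss. The labels name no allele, strain or exact age, and do not say whether each library came from a separate animal, so p-values measure the spread between these libraries. Fmr1 RNA itself was not analysed here, so genotype rests on the labels.

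MicroRNAs guide Argonaute proteins to messenger RNAs, mostly through pairing of the seed, bases 2 to 8 from the 5′ end, with sites in the target. The hairpins of miR-10a and miR-10b lie inside Hox clusters, whose genes pattern the body axis behind the forebrain, and both miRNAs are known to repress Hox messenger RNAs. The miR-99 and miR-100 hairpins lie next to hairpins of the let-7 and miR-125 families, which regulate developmental timing, and known targets of miR-99a and miR-100 include mTOR and the insulin-like growth factor receptor.

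The mature sequences below show how closely the 5 miRNAs are related and where they part. They are RefSeq's, on GRCm38.p6, and the seed is in capitals.
miR-10a-5p: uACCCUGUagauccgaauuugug
miR-10b-5p: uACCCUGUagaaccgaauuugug
miR-99a-5p: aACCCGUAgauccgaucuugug
miR-100-5p: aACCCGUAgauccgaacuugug
miR-99b-5p: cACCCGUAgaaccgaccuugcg
Although the 5 are often grouped together, they carry 2 different seeds. The seed of miR-10a-5p and miR-10b-5p is ACCCUGU, which pairs with the site ACAGGGU. That of miR-99a-5p, miR-99b-5p and miR-100-5p is ACCCGUA, which pairs with UACGGGU. Of 970 mature miRNAs of the table with a RefSeq sequence, 2 had the first seed and 3 the second, all of them the miRNAs listed above. The 2 groups are linked by a shift: once base 6 of miR-10a-5p, a U, is removed, the remaining 22 bases differ from miR-100-5p by the substitutions U1A and U17C alone, counted from the 5′ end of the shortened miR-10a-5p. Within the groups, miR-10a-5p and miR-10b-5p differ by U12A, and miR-99a-5p and miR-100-5p by U16A, counted from the 5′ end of the miRNA named first. Between miR-99a-5p and miR-99b-5p there are 4 substitutions, A1C, U11A, U16C and U21C, none of them in the seed. How reads that fit both members of such a pair were assigned is not given in the sources used here, so the split of reads within the pairs is uncertain and sums are given further on.

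The 5 loci fall on 5 chromosomes, all on the plus strand (GENCODE M21, GRCm38). The miR-10a hairpin lies on chromosome 11 (96317165 to 96317274), in no annotated host gene and 993 bp upstream of Hoxb4. The miR-10b hairpin, on chromosome 2 (74726070 to 74726137), lies in an intron of Hoxd4 and of longer Hoxd3 transcripts. The miR-99a hairpin lies on chromosome 16 (77598936 to 77599000), in an intron of the long noncoding host gene Mir99ahg. The hairpin of miR-100, on chromosome 9 (41531425 to 41531504), is in an intron of the noncoding 3110039I08Rik, and that of miR-99b, on chromosome 17 (17830188 to 17830257), in an intron of the protein-coding gene Spaca6. The 3 clusters share the order miR-99 or miR-100, then let-7, then miR-125. They differ in size: miR-99b, let-7e and miR-125a lie within 692 bp, whereas the clusters of miR-99a (with let-7c-1 and miR-125b-2) and miR-100 (with let-7a-2 and miR-125b-1) span 47408 and 50578 bp.

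**Figure D1:**
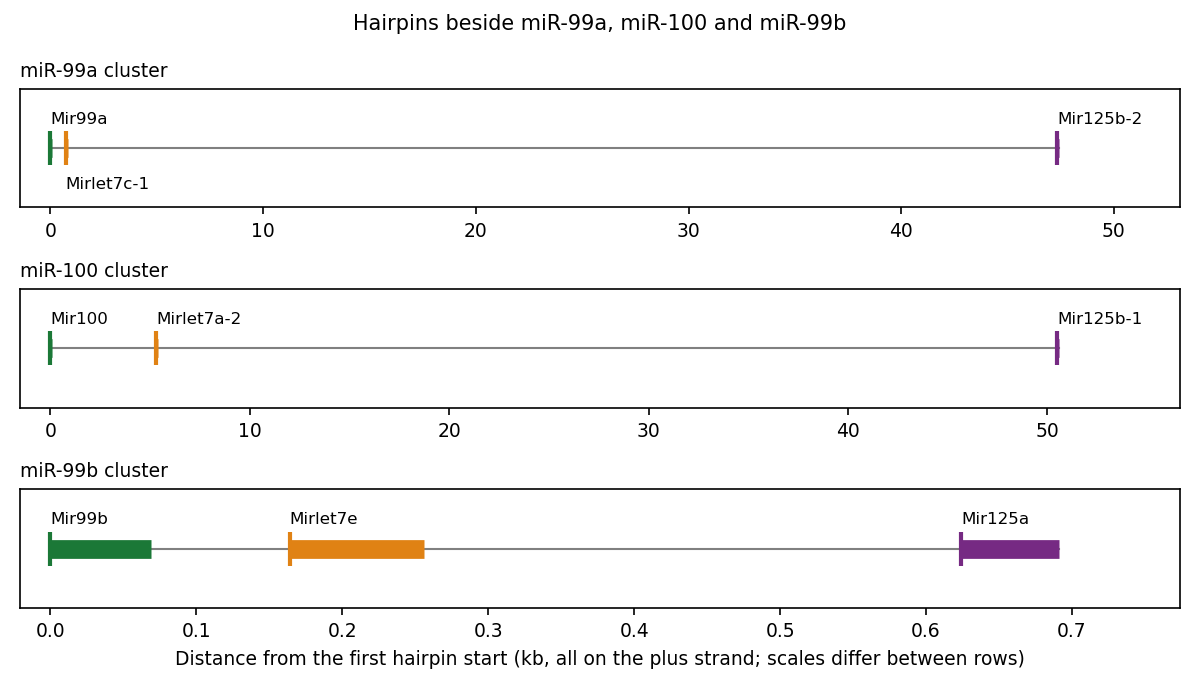
Positions of the hairpins in the 3 clusters, in kb from the start of the first hairpin, with a separate scale for each cluster; vertical ticks mark hairpin starts, and filled blocks, visible for the miR-99b cluster, mark their length. The miR-99b cluster spans 692 bp and the other clusters 47408 and 50578 bp.

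Levels are given as CPM, counts divided by library size on a common scale, after TMM scaling in edgeR, which corrects library totals for the composition of each library. Summed counts ranged from 11182888 to 15733876 per library, and 541 miRNAs had enough reads to be tested. Of these, 0 differed between KO and WT at an adjusted p under 0.05 (0%, edgeR quasi-likelihood test with Benjamini-Hochberg adjustment), and 35 had an unadjusted p under 0.05 (6.47%). The KO libraries were more dispersed than the WT libraries, with a median SD of log2 CPM of 0.37 in KO and 0.14 in WT. The miRNAs of cortical neurons, miR-9-5p, miR-124-3p and miR-128-3p, summed to between 280959 and 423211 CPM in every library. Most of this sum was miR-9-5p, which was highest in KO replicate 2 (316153 CPM, against 183266 to 228914 CPM elsewhere). miR-124-3p was lowest in KO replicate 2 (1297 CPM) and highest in KO replicate 3 (2118 CPM). miR-128-3p was lowest in KO replicate 3 (90410 CPM) and highest in WT replicate 3 (111894 CPM). KO replicate 3 stood apart in several markers. Its choroid plexus miRNAs (miR-204 arms and miR-211-5p, 3 of 3 detected) summed to 1636 CPM, against 675 to 776 CPM in the other libraries. Nearly all of it was miR-204-5p (1621 CPM, against 664 to 766 CPM elsewhere). miR-204-3p (12.4 against 6.29 to 10.9 CPM) and miR-211-5p (2.80 against 0.723 to 1.68 CPM) were also highest in KO replicate 3. Of 2 oligodendrocyte miRNAs, miR-219a-2-3p was lowest there (518.0 CPM, against 675 to 855 CPM) and miR-338-3p highest (32.7 CPM, against 14.4 to 21.4 CPM). miRNAs of epithelium and olfactory neurons (5 members of the miR-200 family) summed to 15.7, 904 and 970 CPM in KO replicates 1 to 3 and to between 83.9 and 290.0 CPM in WT. Summed levels of endothelial and mural miRNAs (4 of 4 listed) were 38483 to 44554 CPM in KO and 35223 to 42566 CPM in WT, those of microglia and leukocytes (5 of 5) 194 to 218 and 170 to 180 CPM, and those of erythroid cells (3 of 3) 79.4 to 119 and 74.7 to 82.2 CPM. Most of the endothelial and mural sum was miR-143-3p. In KO replicates 1 to 3 it measured 36476, 36819 and 30329 CPM. miR-126a-3p, miR-126a-5p and miR-145a-5p were each highest in KO replicate 3. For miR-126a-3p all KO libraries lay above WT on the TMM scale (7604 to 8001 against 6998 to 7587 CPM). Such upward separation held for 5.18% of all tested miRNAs. KO replicate 2 and WT replicate 3 were nearly tied, and by library totals alone KO replicate 2 was the lowest library for miR-126a-3p. In KO replicate 3 miR-146a-5p and miR-142a-5p were lowest, and miR-150-5p, miR-142a-3p and miR-223-3p highest. Of the erythroid miRNAs, miR-451a was highest in KO replicate 3 (80.1 CPM, against 28.8 to 43.3 CPM). miR-486a-5p was lowest there (38.4 CPM, against 41.7 to 54.8 CPM), and miR-144-3p lay within the range of the other libraries. The part of all these cells in the levels described next was not tested.

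Cortex contained much miR-99a-5p, miR-100-5p and miR-99b-5p and very little of the Hox-cluster miRNAs. By mean level over the 6 libraries, miR-99a-5p ranked 7, miR-100-5p 9 and miR-99b-5p 22 among the 1182 miRNAs, while miR-10a-5p and miR-10b-5p ranked 213 and 215. The log2 ratio of miR-100-5p to miR-99b-5p was 1.63 ± 0.16 (SD, n = 6 libraries), and that of miR-99b-5p to miR-10a-5p 7.45 ± 0.27, each with the first miRNA higher in 6 of 6 libraries (both p = 0.03125 in an exact two-sided sign-flip permutation test, the smallest it can give, and adjusted p = 0.0625 over 4 neighbouring pairs). miR-99a-5p and miR-100-5p did not separate beyond their spread. Their log2 ratio was 0.085 ± 0.17, with miR-99a-5p higher in 5 of 6 libraries (exact permutation p = 0.25, adjusted p = 0.333). The same held for miR-10a-5p and miR-10b-5p, with a log2 ratio of -0.019 ± 0.40 and miR-10a-5p higher in 3 of 6 libraries (exact permutation p = 0.938). Cloning efficiency differs between miRNAs, so levels of different miRNAs in reads are approximate.

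None of the 5 passed the test between KO and WT, against a background of 0% of all tested miRNAs, and for none of them were the KO and WT libraries fully separated, where 15.7% of all tested miRNAs were (5.18% wholly higher and 10.5% wholly lower in KO). The fitted change was upward in KO for 2, both Hox-cluster miRNAs, and downward for 3, the miR-99 and miR-100 products, where it was upward for 52.5% and downward for 47.5% of all tested miRNAs. The median log2 fold change over the 5 was -0.10, beside 0.027 over all 541 tested miRNAs.

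Of the 5, mmu-miR-99a-5p lay furthest below WT in mean level. It measured 18756, 23806 and 14259.9 CPM in KO replicates 1 to 3 and 24183, 23531 and 23264 CPM in WT replicates 1 to 3. KO replicates 1 and 3 lay below all WT libraries, while KO replicate 2 lay among them. KO averaged 18941 ± 4776 CPM and WT 23659 ± 473 CPM (mean ± SD of 3 libraries), so that the log2 fold change was -0.32 with SE 0.19 (95% interval -0.75 to 0.11, edgeR adjusted p = 0.749). The separation depended on the scaling. In the deposited TPM, which scale by library totals alone, KO values were 20473, 19675 and 15469 and WT values 24887, 24165 and 22481, so that the genotypes did not overlap, which held for 8.69% of all tested miRNAs in that direction and on that scale. With upper-quartile scaling KO replicate 2 (22820 CPM) and WT replicate 3 (22825 CPM) were nearly tied, although KO again lay lower throughout, as for 12.6% of all tested miRNAs on that scale. The test on log2(TPM + 1) gave a log2 difference of -0.37 (limma adjusted p = 0.962). KO replicate 2 also had the lowest TMM factor, 0.827, against 0.966 to 1.09 in the other libraries. Without it the log2 fold change was -0.57 (edgeR adjusted p = 0.498), and without KO replicate 3 it was -0.13 (adjusted p = 0.683).

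mmu-miR-100-5p, which differs from miR-99a-5p by a single base, measured 21650.3, 22186 and 14039 CPM in KO against 20823, 19277 and 21868 CPM in WT. KO replicate 1 lay in the upper part of the WT range, KO replicate 2 just above it and KO replicate 3 far below it. KO averaged 19292 ± 4557 CPM and WT 20656 ± 1304 CPM (mean ± SD of 3 libraries), so that the log2 fold change was -0.10 with SE 0.19 (95% interval -0.53 to 0.34, edgeR adjusted p = 0.882). Without KO replicate 3 the sign turned (log2 fold change 0.10, adjusted p = 0.734). The ratio of miR-99a-5p to miR-100-5p needs no scaling. It was 0.866, 1.07 and 1.02 in KO and 1.16, 1.22 and 1.06 in WT, and the mean log2 ratio was -0.028 ± 0.16 for KO and 0.20 ± 0.10 for WT. An exact permutation test, two-sided, gave p = 0.2 (adjusted over 8 ratios, p = 1). With 3 libraries against 3 this test cannot give a p below 0.1.

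Among the 3 abundant members, mmu-miR-99b-5p varied most between KO libraries relative to its mean (coefficient of variation 34.0%, against 25.2% for miR-99a-5p and 23.6% for miR-100-5p). It measured 8245, 6220.1 and 4045 CPM in KO against 6906, 6412 and 7373 CPM in WT. KO replicate 1 was the highest of all 6 libraries, and KO replicates 2 and 3 were the lowest. KO averaged 6169.7 ± 2100.5 CPM and WT 6897 ± 480.4 CPM (mean ± SD of 3 libraries), so that the log2 fold change was -0.16 with SE 0.24 (95% interval -0.71 to 0.39, edgeR adjusted p = 0.882). It was -0.41 without KO replicate 1 and 0.082 without KO replicate 3.

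Among the Hox-cluster miRNAs, mmu-miR-10a-5p measured 58.9, 42.1 and 21.6 CPM in KO against 40.8, 34.9 and 31.4 CPM in WT. Its KO libraries spanned a range that enclosed all WT values, from KO replicate 3 at the bottom to KO replicate 1 at the top. KO averaged 40.9 ± 18.7 CPM and WT 35.7 ± 4.75 CPM (mean ± SD of 3 libraries), so that the log2 fold change was 0.20 with SE 0.33 (95% interval -0.56 to 0.95, edgeR adjusted p = 0.882). Direction and size rested on single libraries: the log2 fold change was -0.15 without KO replicate 1 and 0.51 without KO replicate 3 (adjusted p = 0.115).

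mmu-miR-10b-5p measured 41.6, 45.9 and 32.5 CPM in KO against 33.8, 31.7 and 39.0 CPM in WT. KO replicates 1 and 2 exceeded all WT libraries and KO replicate 3 fell within the WT range. KO averaged 40.0 ± 6.86 CPM and WT 34.9 ± 3.74 CPM (mean ± SD of 3 libraries), so that the log2 fold change was 0.20 with SE 0.20 (95% interval -0.25 to 0.65, edgeR adjusted p = 0.813). It was 0.040 without KO replicate 2 and 0.34 without KO replicate 3 (adjusted p = 0.238). The genotypes did separate, with KO higher, when libraries were scaled by totals without the 5 most abundant miRNAs, although miR-10b-5p did not pass the test there either (log2 fold change 0.27, adjusted p = 0.709), and 7.39% of all tested miRNAs lay wholly higher in KO on that scale.

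**Figure D2:**
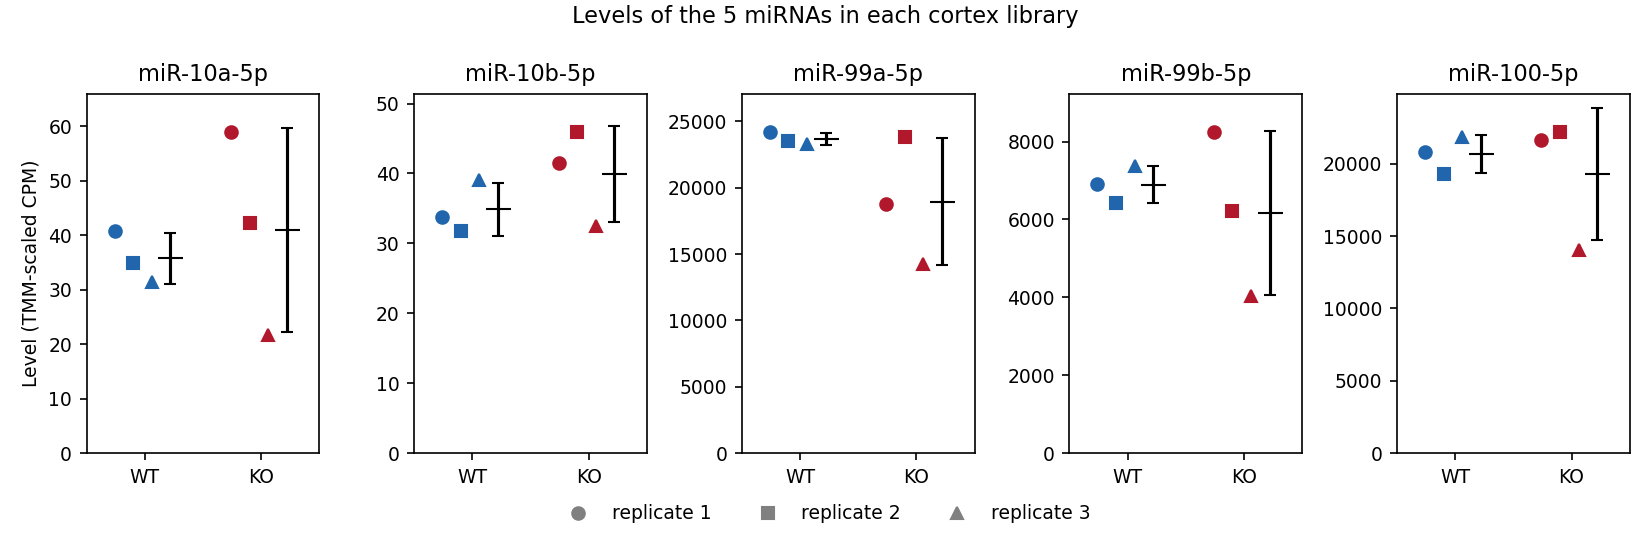
Levels of the 5 miRNAs in TMM-scaled CPM (linear axes from 0, a separate scale for each miRNA), with 1 symbol per replicate and black bars for the mean and SD of each genotype (n = 3). KO replicate 3 is the lowest library for miR-10a-5p, miR-99a-5p, miR-99b-5p and miR-100-5p, and the KO libraries are more spread than the WT libraries in every panel.

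Counting error was much smaller than this spread. The lowest count of miR-10a-5p was 262 reads, for which counting error alone is 6.18%, while the coefficient of variation between libraries was 45.7% in KO and 13.3% in WT. The lowest count of miR-10b-5p was 394 reads (counting error 5.04%), with coefficients of variation of 17.2% in KO and 10.7% in WT. For miR-99a-5p the lowest count was 172990 reads (counting error 0.24%), and the coefficient of variation was 25.2% in KO and 2.0% in WT. Reads are not unique molecules, so these errors cover counting only.

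Sums over the pairs that differ by a single base do not depend on how shared reads were split. That holds only if each shared read was counted once, and whether some were dropped or counted for both is not given. Together, miR-99a-5p and miR-100-5p reached 40406, 45992 and 28299 CPM in KO against 45006, 42807 and 45132 CPM in WT. KO replicate 2 lay above all WT libraries, and KO replicates 1 and 3 lay below all of them. KO averaged 38232 ± 9044 CPM and WT 44315 ± 1307 CPM (exact permutation test, two-sided, p = 0.4, and 0.5 adjusted over both sums). miR-10a-5p and miR-10b-5p together reached 100.5, 88.1 and 54.1 CPM in KO against 74.7, 66.6 and 70.4 CPM in WT. KO replicates 1 and 2 lay above and KO replicate 3 below all WT libraries, so the KO mean of 80.9 ± 24.0 CPM and the WT mean of 70.6 ± 4.01 CPM differed by less than the spread (exact permutation test, p = 0.5, adjusted p = 0.5).

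**Figure D3:**
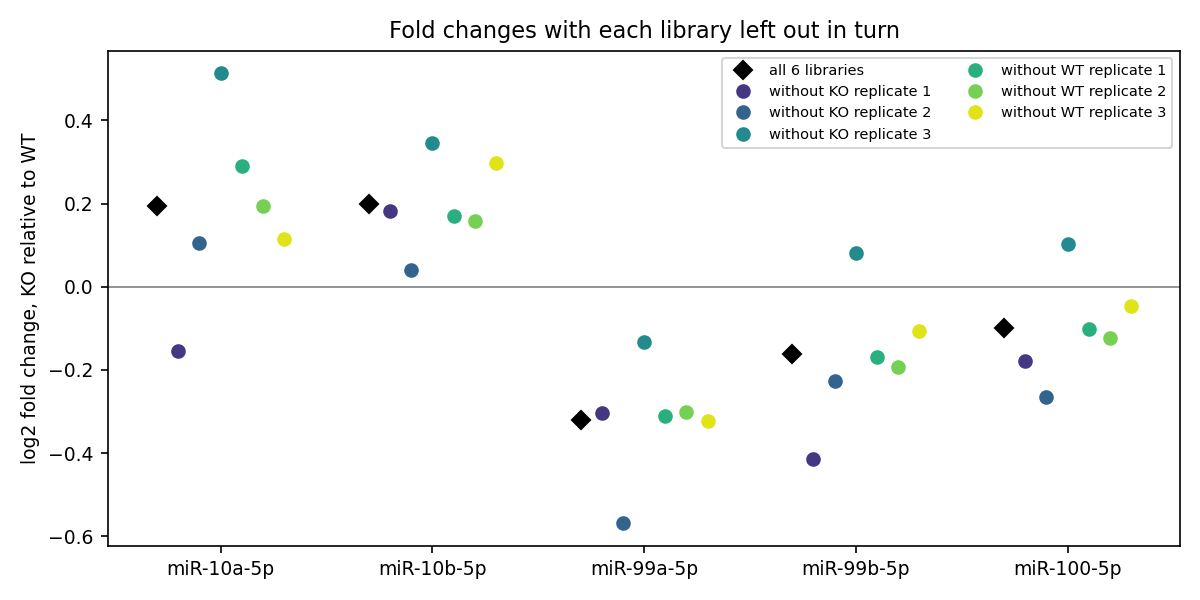
Log2 fold change of KO relative to WT for each of the 5 miRNAs in all 6 libraries (black diamonds) and with each library left out in turn (circles). Leaving out KO replicate 3 moves all 5 upward, and takes miR-99b-5p from -0.16 to 0.082 and miR-100-5p from -0.10 to 0.10.

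Nearly all reads of the 5 hairpins came from the 5p arm, the strand that is loaded into Argonaute. Over all libraries there were 3 reads of miR-10a-3p beside 3201 of miR-10a-5p, and 1 read of miR-10b-3p beside 3089 of miR-10b-5p. The 3p arms of miR-99a and miR-100 had 43 and 50 reads, beside 1773104 and 1663287 reads of the 5p arms. miR-99b stood out by a measurable 3p arm, whose sequence is shown here with bases 2 to 8 in capitals.
miR-99b-3p: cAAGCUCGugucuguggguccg
It measured 149.3, 96.7 and 95.7 CPM in KO against 124.3, 113.5 and 133.9 CPM in WT, and was the only 3p arm of the 5 to reach the count filter. KO replicate 1 was again the highest library and KO replicates 2 and 3 the lowest, as for the 5p arm. Its log2 fold change was -0.12 (SE 0.23, 95% interval -0.65 to 0.41, edgeR adjusted p = 0.882). The 5p share of miR-99b reads was 98.1% ± 0.399 for KO libraries and 98.2% ± 0.0229 for WT libraries (mean ± SD of 3; exact permutation p = 0.8, adjusted p = 1 over 7 hairpins). KO replicate 3 had the lowest share, 97.7%, and the widest 95% Wilson interval of any library spanned 0.263 percentage points. For miR-10a, miR-10b, miR-99a and miR-100 the 5p share was at least 99.6% in every library and did not differ beyond the spread between genotypes (exact permutation p from 0.2 to 1, adjusted p = 1).

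The miR-99 and miR-100 products and their cluster neighbours were not at a fixed ratio across libraries. The neighbours carry other seeds, shown here in capitals.
let-7a-5p: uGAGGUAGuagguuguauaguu
let-7c-5p: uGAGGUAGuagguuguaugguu
let-7e-5p: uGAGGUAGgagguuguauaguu
miR-125a-5p: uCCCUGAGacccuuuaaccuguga
miR-125b-5p: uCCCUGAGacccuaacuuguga
Of these 5 partners, let-7e-5p and miR-125a-5p come from the miR-99b cluster alone, while let-7a-5p and let-7c-5p each have a further hairpin on another chromosome and miR-125b-5p is encoded in both the miR-99a and the miR-100 cluster. None passed the test, and 4 of 5 had lower values in KO, as did 257 of all 541 tested miRNAs. Their median log2 fold change was -0.20, beside 0.027 over all tested miRNAs. The KO libraries lay wholly below the WT libraries for 3 of them, let-7a-5p, let-7c-5p and miR-125b-5p, where 10.5% of all tested miRNAs did so. Their log2 fold changes were -0.34 (SE 0.18), -0.29 (SE 0.14) and -0.20 (SE 0.13), with edgeR adjusted p-values of 0.749, 0.749 and 0.769. For miR-125b-5p the separation was lost with upper-quartile scaling, in the deposited TPM and with totals that leave out the 5 most abundant miRNAs. The partners' own passenger arms were listed for 6 of 7 names, of which 3 had higher and 3 had lower values in KO and 0 passed the test.

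In the miR-99b cluster the ratio of miR-99b-5p to miR-125a-5p reads was 7.87, 7.20 and 3.18 in KO and 5.97, 6.59 and 7.12 in WT. KO replicates 1 and 2 lay just above the WT range and KO replicate 3 far below it. For miR-99b-5p over let-7e-5p the ratios were 12.8, 10.4 and 4.45 in KO and 8.74, 8.90 and 9.91 in WT, with the same order of KO libraries. KO replicate 3 thus held the least miR-99b-5p of all libraries, 4045 CPM, together with the most let-7e-5p, 908 CPM against 601 to 790 CPM elsewhere, and the most miR-125a-5p, 1274 CPM against 864 to 1156 CPM elsewhere, although the 3 hairpins lie within 692 bp. The 3p arm of let-7e went the other way, at 3.96 CPM in KO replicate 3 and 6.49 to 8.69 CPM elsewhere. miR-125a-3p, at 7.17 CPM in KO replicate 3, lay within the range of the other libraries (4.96 to 7.92 CPM). let-7e-5p is close in sequence to let-7a-5p, and how reads that fit both were assigned is not given. The 5p products of the partners kept closer to each other: miR-125a-5p over let-7e-5p was 1.40 in KO replicate 3 and between 1.35 and 1.63 in the other libraries. The 3p arm of miR-99b had nearly the same level in KO replicates 2 and 3 (96.7 and 95.7 CPM), where the 5p arm had 6220 and 4045 CPM. Relative to miR-125a-5p the 3p arm was lowest in KO replicate 3, at 0.0751 reads per read and between 0.107 and 0.142 elsewhere. These last ratios were chosen after the values were seen and are given without a test. KO replicate 3 is also the library with the high choroid plexus miRNAs and the lowest read total, and the part of either in these ratios was not tested.

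Between genotypes, neither ratio of the miR-99b cluster differed beyond the spread. The mean log2 ratio of miR-99b-5p to miR-125a-5p was 2.50 ± 0.72 in KO and 2.71 ± 0.13 in WT, and that of miR-99b-5p to let-7e-5p was 3.07 ± 0.81 against 3.20 ± 0.10 (exact permutation p = 1 for both). Without KO replicate 3 both mean differences turned positive (0.20 and 0.33). miR-99a-5p over miR-125b-5p was 3.66, 4.36 and 2.70 in KO and 3.84, 3.90 and 3.99 in WT, again lowest in KO replicate 3. miR-100-5p over miR-125b-5p was 4.23, 4.06 and 2.66 in KO and 3.31, 3.19 and 3.75 in WT. These and the ratio of miR-99a-5p to let-7c-5p gave exact permutation p-values of 0.7 to 0.8 (adjusted p = 1 over 8 ratios). The WT libraries held the ratio of miR-99a-5p to miR-125b-5p within an SD of 0.028 log2 units, against 0.35 in KO.

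**Figure D4:**
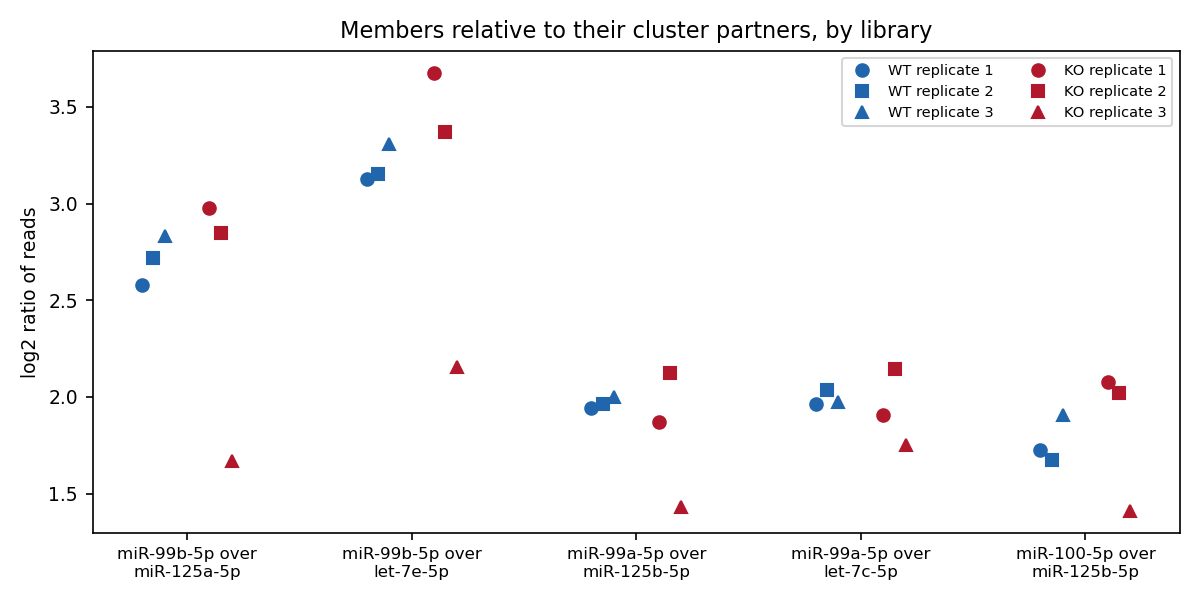
Log2 ratio of reads between miR-99 or miR-100 products and their cluster partners in each library (axis not from 0), blue for WT and red for KO, with 1 symbol per replicate. KO replicate 3 (red triangles) is the lowest library in all 5 ratios, and its distance is largest for miR-99b-5p over miR-125a-5p and over let-7e-5p.

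**Figure D5:**
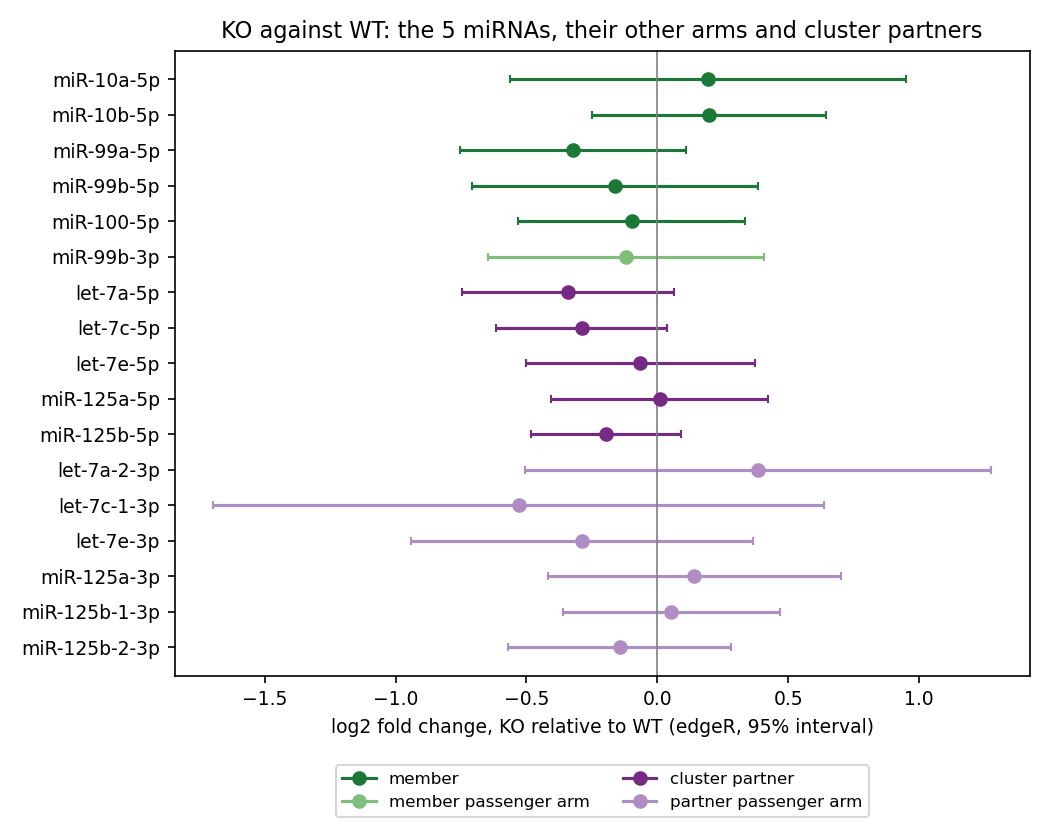
Log2 fold changes of KO relative to WT with 95% intervals (edgeR, n = 3 libraries per genotype) for the 5 miRNAs, the tested 3p arm of miR-99b, and the cluster partners with their tested passenger arms. All intervals include 0, and they are widest for the passenger arms let-7c-1-3p and let-7a-2-3p.

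Of the other miRNAs encoded in Hox clusters, which are characteristic of hindbrain, spinal cord and trunk, 3 of 7 listed names were found in the table and 0 reached the count filter. miR-196a-5p had 1, 3 and 0 reads in KO and 2, 4 and 2 in WT, miR-196b-5p 0, 1 and 4 in KO and 0, 3 and 1 in WT, and miR-615-3p 4, 10 and 3 in KO and 5, 6 and 14 in WT. A count of 0 allows up to 3 reads, which is 0.197 to 0.252 CPM in these libraries. miR-10a-5p and miR-10b-5p, at 21.6 to 58.9 CPM, were thus the only ones of these Hox-cluster miRNAs to pass the count filter, and the summed level of the other 3 was at most 1.18 CPM. In tissue RNA, fewer cells that make a miRNA and less of it per cell cannot be told apart.

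The 3 miRNAs most alike each member across the 6 libraries were listed, and these lists differed between members. Likeness was Pearson's r of log2 CPM over 6 libraries, computed against 301 tested miRNAs with a mean of at least 10 CPM. Within a library all miRNAs share its depth and scaling, which differ between libraries. The highest of 301 values over 6 libraries can be high by selection alone, so likeness is a description without a test. miR-10b-5p was most like miR-143-3p (r = 0.958), followed by miR-873a-3p and miR-146a-5p (both r = 0.886). With the other endothelial and mural miRNAs, r of miR-10b-5p was 0.145 (miR-145a-5p), 0.344 (miR-126a-3p) and -0.460 (miR-126a-5p). miR-10a-5p was most like miR-3074-1-3p (r = 0.965), miR-30b-3p and miR-3535. miR-99a-5p was most like miR-758-3p (r = 0.987), of the imprinted Dlk1-Dio3 cluster, then miR-30c-5p and miR-103-3p. For miR-99b-5p the nearest were miR-146b-5p (r = 0.995), miR-666-5p and miR-12194-3p, and for miR-100-5p they were miR-375-3p (r = 0.985), miR-195a-3p and miR-6540-5p. No member was among the 3 nearest of another. Between members, r was highest for miR-99b-5p with miR-100-5p (0.910) and lowest for miR-10b-5p with miR-99a-5p (0.252), and the near-identical pairs had 0.825 (miR-99a-5p with miR-100-5p) and 0.575 (miR-10a-5p with miR-10b-5p).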

How the data were processed

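The authors deposited whole-number read counts per mature miRNA and TPM values, per the file headers; each deposited TPM is the count divided by the library total and rescaled to a common sum, with no length term. Per the submitters' processing notes, Bowtie, DESeq2 and the build mm10 were used. For trimming, mismatches, strand and multiply matching reads, the procedure is not given in the sources used here.

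Counts were tested in R 4.3.3 with edgeR 4.0.16 (filterByExpr with a minimum count of 10, TMM, robust quasi-likelihood test of genotype over all 6 libraries, Benjamini-Hochberg adjustment over 541 miRNAs, threshold 0.05). Standard errors and 95% intervals derive from that test. Ratios, shares, sums and the order of levels had exact permutation tests in Python 3.11.15. The edgeR procedure was tested on simulated data. Alternatives were other scalings and filters, DESeq2 1.42.0, limma 3.58.1 (voom, and log2(TPM + 1)) and leaving out each library. Replicate numbers follow accession order and only name libraries. Sequences came from RefSeq and positions from GENCODE M21. Named miRNAs were the 5 members, fixed lists of their other arms, cluster partners, other Hox-cluster miRNAs and tissue markers, and the 3 most alike miRNAs for each member. Members and lists were chosen with earlier results of these data known.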

Additional observations from a re-analysis of the deposited data

How the results depend on the processing

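Under 14 alternatives, 0 of the 5 members and 0 of the tested partner products (11, or 9 under the filter of 5 CPM in 3 libraries) passed at an adjusted p of 0.05. Over all miRNAs there were 0 calls except without KO replicate 3, where 18 of 560 passed, none of them a member (range over left-out libraries 0 to 18). With DESeq2 and limma-voom there were also 0 calls (38 and 33 at an unadjusted p under 0.05). Signs held under all 8 other scalings, filters and tools. With single libraries left out, log2 fold changes ranged from -0.15 to 0.51 for miR-10a-5p, -0.41 to 0.082 for miR-99b-5p and -0.26 to 0.10 for miR-100-5p, while miR-10b-5p (0.040 to 0.34) and miR-99a-5p (-0.57 to -0.13) kept their sign. With each library left out in turn, the mean log2 ratio of miR-10a-5p to miR-10b-5p over the remaining libraries ranged from -0.12 to 0.10. Differences in log2 ratio (KO minus WT) ranged from -0.39 to 0.16 for miR-10a-5p over miR-10b-5p, -0.10 to 0.28 for miR-99b-5p over miR-99a-5p, -0.45 to 0.20 and -0.43 to 0.33 for miR-99b-5p over miR-125a-5p and let-7e-5p, -0.31 to 0.031 and -0.16 to 0.035 for miR-99a-5p over miR-125b-5p and let-7c-5p, and -0.053 to 0.28 for miR-100-5p over miR-125b-5p. Differences in 5p share ranged from -0.282 to 0.109 percentage points for miR-99b, -0.16 to 0.253 for let-7e and -0.0890 to 0.00591 for miR-125a. The cause of these shifts was not tested. No paired analysis was possible because the labels give the groups no shared replicate numbers. With 3 libraries per genotype, depth did not limit the members, while the other Hox-cluster miRNAs had too few reads to compare.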
